A study of Bos taurus with 13 samples.

Results

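Genes of the cytosolic nucleic acid sensing machinery, 8 of the 16095 named genes in the count tables, were followed in whole blood of 13 dairy cows. They are *DDX58* (RIG-I), *IFIH1* (MDA5), *DHX58* (LGP2), *TRIM25*, *MAVS*, *ZBP1*, *EIF2AK2* (PKR) and *TMEM173* (STING), found by the gene name that the tables give, and all 8 passed the filter on low counts. The cows were lactating animals of 1 Italian herd, labelled as Italian Red Pied, that lay at opposite ends of the ranking on cortisol in milk, a hormone of the stress response. Counts of 7 cows with high cortisol (replicates 1 to 7) and 6 cows with low cortisol (replicates 8 to 13) were analysed. The groups differ in their place in the ranking and in no treatment, allele or agent that the labels name. Ages were not given in the sources used here, nor was the milk cortisol of any single cow.

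RIG-I and MDA5 are helicases that bind foreign RNA in the cytosol, RIG-I preferring the triphosphate ends of viral RNA and MDA5 long double-stranded RNA. LGP2 is a relative of both that lacks the signalling domains and tunes their action, and TRIM25 is a ubiquitin ligase that helps to activate RIG-I. The activated helicases bind MAVS, an adaptor on mitochondria, from which kinases and transcription factors switch on type I interferon genes. STING is the adaptor on the endoplasmic reticulum for the DNA sensor cGAS and leads to the same kinases. PKR is a kinase that stops translation on binding double-stranded RNA, and ZBP1 binds nucleic acids in the Z conformation and can start cell death. Several of these genes are themselves induced by interferon, which makes sensing a positive feedback loop.

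The tissue was blood collected in PAXgene tubes, which fix RNA at sampling, and globin RNA was not depleted. Markers of blood cells were present in every cow, with *CD3E* of T cells at 765 to 1723 CPM, *MS4A1* of B cells at 239 to 505 CPM, *CSF3R* of neutrophils at 2108 to 6101 CPM and *CD14* of monocytes at 52.1 to 174 CPM. Named genes held between 11045599 and 28124575 counts per cow. The 4 haemoglobin genes named in the tables took 0.0282% to 0.815% of these counts in the high group and 0.0114% to 0.0552% in the low group, with the highest share in high cow 7. In whole blood, fewer cells of a type and less RNA per cell cannot be told apart. CPM below are counts per 1000000 counts of the 11033 genes that passed the filter on low counts, after TMM scaling. TMM scaling is a correction for differences in RNA composition between libraries.

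The RNA helicases and their ligase ranged widely between cows. *DDX58*, on chromosome 8 from 11428373 to 11472719 of the UMD3.1 build (plus strand), was at 37.2 CPM in the lowest, 55.4 CPM in the median and 197 CPM in the highest high cow. In the low group its lowest, median and highest values were 39.4, 109 and 264 CPM. The range of the low group covered nearly all of the high group, in which high cow 5 stood far above the rest, and the highest of the 13 cows was 7.09 times the lowest.

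*IFIH1*, on chromosome 2 from 34217173 to 34272473 (plus strand), was at 93.2, 118 and 183 CPM in the lowest, median and highest high cow. Its values in the low group were 112, 149.7 and 317 CPM. Low cow 8 stood above the other cows, and the groups overlapped between the lowest low and the highest high cow.

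*DHX58*, on chromosome 19 from 42877797 to 42888179 (minus strand), had the widest range of the helicases. The high group had 62.3, 99.7 and 454 CPM as its lowest, median and highest value. The low group had 89.1, 192 and 565 CPM. In each group the highest cow, high 5 and low 8, was well apart from the next, and the highest cow was 9.07 times the lowest. *KAT2A*, on the same strand, ends 675 bases before the start of *DHX58*, and counting did not use strand.

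*TRIM25*, on chromosome 19 from 7939851 to 7959817 (minus strand), had 36.6, 44.5 and 81.9 CPM as the lowest, median and highest value of the high group. In the low group these values were 46.2, 68.6 and 116 CPM, and all 6 low cows lay above the median of the high group.

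The adaptor *MAVS*, on chromosome 13 from 51797279 to 51809475 (minus strand), had the narrowest range of the 8 genes. The high group had 28.2, 28.9 and 45.9 CPM as its lowest, median and highest value, and the low group had 27.2, 33.4 and 40.6 CPM. Apart from high cow 5, the high cows lay between 28.2 and 31.7 CPM, within the range of the low group.

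The other adaptor, *TMEM173*, on chromosome 7 from 52361793 to 52368150 (minus strand), was also even. Its values were 92.5, 118 and 162 CPM in the high group and 90.6, 106 and 133 CPM in the low group. The highest cow was high 4, which was the lowest of all cows for *DHX58* and *ZBP1*.

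*ZBP1*, on chromosome 13 from 59099339 to 59109190 (plus strand), had the widest range of the 8 genes. The high group had 31.9, 71.4 and 402 CPM as its lowest, median and highest value. In the low group the values were 72.8, 171 and 291 CPM. The highest cow of all, high 5, was 12.6 times the lowest, high 4, so that the high group spanned the whole range and the low group lay inside it.

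*EIF2AK2*, on chromosome 11 from 19578982 to 19621259 (minus strand), had 41.1, 57.0 and 111 CPM in the lowest, median and highest high cow. The low group had 47.7, 78.8 and 201 CPM, with low cow 8 above all others. The gene lies 302 bases from *GPATCH11* on the opposite strand, the nearest neighbour of any of the 8 genes, and no named gene overlapped any of them.

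**Figure D1:**
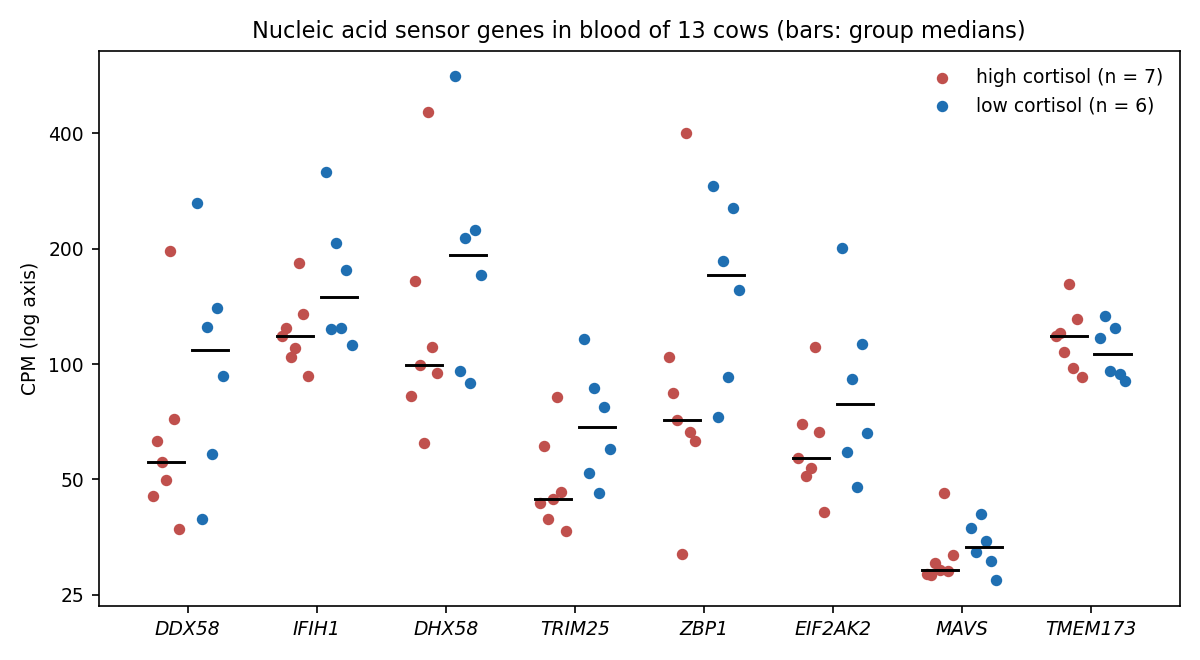
Level of the 8 genes in every cow, in CPM on a log axis, with high cortisol cows in red, low cortisol cows in blue and a bar at the median of each group. In *DDX58*, *DHX58* and *ZBP1* 1 high cow lies far above the other high cows (197, 454 and 402 CPM), while *MAVS* and *TMEM173* stay within narrow bands in both groups.

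Measured as the SD of log2 CPM over the 13 cows, the genes fell into a variable and an even part. The SD was 1.04 for *ZBP1*, 0.96 for *DHX58* and 0.90 for *DDX58*, which put them above 98.5%, 97.9% and 97.2% of the 11033 genes tested. *EIF2AK2*, *TRIM25* and *IFIH1* had SDs of 0.63, 0.51 and 0.49, above the median of 0.31 over all genes. The adaptors were below that median, at 0.25 for *TMEM173* and 0.23 for *MAVS*. Counting error was small beside these spreads, since the lowest count of any of the 8 genes in a cow was 339, for *MAVS*.

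Between genes, levels were compared per kilobase of exon. *ZBP1* had the highest mean, 82.6 ± 63.1 CPM per kilobase (SD, n = 13), followed by *DHX58* with 71.6 ± 58.9. *TMEM173* and *IFIH1* had nearly the same mean level, 45.4 ± 8.26 and 44.5 ± 18.3 CPM per kilobase. *EIF2AK2* followed with 35.1 ± 19.2, *DDX58* with 32.5 ± 23.6 and *TRIM25* with 25.6 ± 9.83. *MAVS* was the lowest, with 11.7 ± 2.00 CPM per kilobase, and the lowest of the 8 genes in each of the 13 cows.

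Most neighbours in this order did not differ beyond their spread. *ZBP1* was above *DHX58* in 8 of 13 cows, *DHX58* above *TMEM173* in 6, and *TMEM173* above *IFIH1* in 9. *EIF2AK2* was above *DDX58* in 9 cows and *DDX58* above *TRIM25* in 8. Steps that held in all 13 cows were *IFIH1* over *EIF2AK2* and *TRIM25* over *MAVS*. *TMEM173* changed place most, from rank 1 in 5 cows to rank 7 in low cow 8, although its own level was even.

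The ratios of the helicases therefore differed between cows. *DDX58* over *IFIH1*, both per kilobase, had a median of 0.602, a lowest value of 0.362 in low cow 9 and a highest of 1.22 in high cow 5, the only cow in which *DDX58* was the higher. *DDX58* was below *DHX58* in every cow, at 0.340 to 0.714 of its level. *IFIH1* over *DHX58* had a median of 0.770 and ran from 0.316 in high cow 5 to 1.38 in high cow 4. *IFIH1* was the higher of these helicases in 4 cows, all of which had an interferon score (defined below) under 0.

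Other pairs kept their proportions. *IFIH1* over *TRIM25* had the smallest spread of the 28 ratios, a log2 SD of 0.18 with values of 1.33 to 2.08. *TRIM25* over *EIF2AK2* had a log2 SD of 0.22 and *IFIH1* over *EIF2AK2* 0.23. The largest spread was that of *ZBP1* over *TMEM173*, a log2 SD of 1.22 with values of 0.283 in high cow 4 to 5.91 in high cow 5. Counting error alone would give log2 SDs of 0.0439 to 0.0785 for these ratios.

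Co-variation was measured as the correlation of log2 CPM over the 13 cows, with permutation p-values (two-sided, 100000 resamples, 28 pairs) adjusted by Benjamini-Hochberg over all other genes tested for the gene named first. The points share library, depth and blood composition. There were 6 genes that rose and fell together, *DDX58*, *IFIH1*, *DHX58*, *TRIM25*, *ZBP1* and *EIF2AK2*. Their 15 pairs had Pearson's r of 0.76 to 0.95 (median 0.92) and Spearman's rho of 0.74 to 0.92. Without the 2 cows farthest from the median of the first gene, r was 0.75 to 0.94. Within the 7 high cows it was 0.77 to 0.99 and within the 6 low cows 0.77 to 0.97.

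The closest pair was *TRIM25* with *EIF2AK2* (r = 0.95, permutation p = 1e-05, the smallest that these resamples can give, adjusted p = 0.0085, rho = 0.92, adjusted p = 0.0401). *IFIH1* with *EIF2AK2* had the same r (0.95, permutation p = 2e-05, adjusted p = 0.0184), and *DDX58* with *DHX58* had r = 0.94 (permutation p = 2e-05, adjusted p = 0.0138). With the genes in the order given at the start, the pairs of the 6 that missed an adjusted p of 0.05 were *IFIH1* with *ZBP1* (r = 0.76, permutation p = 0.0016, adjusted p = 0.221), *IFIH1* with *DHX58* (r = 0.85, permutation p = 0.00032, adjusted p = 0.0905) and *TRIM25* with *ZBP1* (r = 0.83, permutation p = 0.00034, adjusted p = 0.0625).

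In all, 12 of the 28 pairs passed by Pearson's r, each of them among these 6 genes, and 4 passed by Spearman's rho. The count rests on which gene of a pair is named first, since each has its own adjustment. In the other order 14 pairs passed by r, the 3 above included (adjusted p = 0.0355, 0.0229 and 0.0277 by permutation), and 1 by rho, and 11 pairs by r and 0 by rho passed in both orders. For comparison, the share of all 11032 other genes that passed with a positive r was 0.335% for *DDX58*, 0.199% for *IFIH1*, 2.45% for *DHX58*, 0.444% for *TRIM25*, 4.21% for *ZBP1* and 0.326% for *EIF2AK2*. For rho such a share was not computed, so the counts by rho have no background. The number of pairs that passed changed with the cows kept. With high cow 5 and low cow 8 both left out, a choice made after their values were seen, r of the 15 pairs was 0.69 to 0.91, and 0 pairs passed by a permutation test over the 11 other cows. Leaving out 1 cow at a time left 4 to 12 pairs, with 4 without low cow 8 and 6 without high cow 5. There were 7 without low cow 10 and 8 without high cow 7, low cow 9 or low cow 12. Whether the loss came from the place of these cows in the range or from fewer cows was not tested.

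The adaptors did not follow. *MAVS* had r of 0.52 to 0.65 with the 6 genes and rho of 0.25 to 0.51. Its r fell to values of 0.24 to 0.56 without the 2 cows farthest from the median, so that the relation rested in part on those cows, and 0 of 6 pairs passed. Among the high cows r was 0.69 to 0.85, and among the low cows 0.18 to 0.67. *TMEM173* had negative r with all 6 genes, between -0.63 with *ZBP1* and -0.16 with *IFIH1*. The *ZBP1* value (permutation p = 0.021, adjusted p = 0.0908) did not pass, and it was -0.61 within the high and -0.61 within the low group. *MAVS* and *TMEM173* had r = -0.29 (permutation p = 0.34, adjusted p = 0.901).

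**Figure D2:**
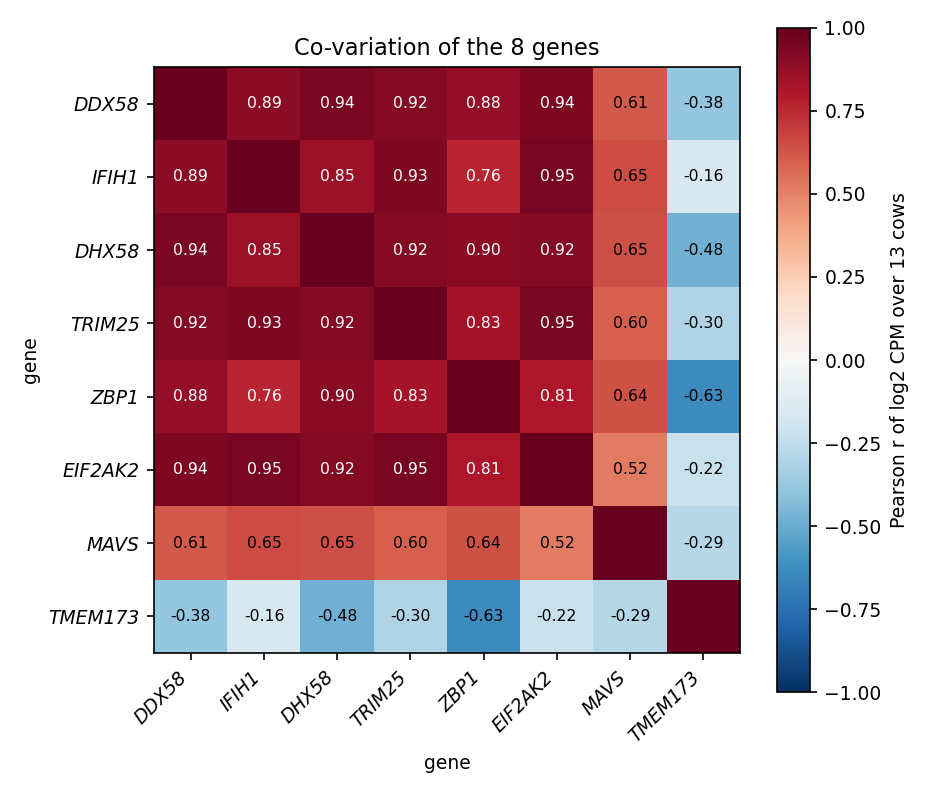
Pearson's r of log2 CPM over the 13 cows for each pair of the 8 genes, printed in each cell and coloured from blue (-1) to red (1). The block of 6 genes from *DDX58* to *EIF2AK2* has r of 0.76 to 0.95, *MAVS* has 0.52 to 0.65 with them, and *TMEM173* is negative with all.

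To place the genes against interferon activity, a score was made from 22 interferon-stimulated genes outside the 8, such as *Mx1*, *ISG15* and *IFIT1*, as the mean of their log2 CPM after centring on each gene's mean over cows. A score of 1 is thus a mean doubling over the average cow. Scores lay between -0.76 (high cow 7) and 0.93 (high cow 5) in the high group and between -0.40 (low cow 11) and 1.37 (low cow 8) in the low group. The slope of a gene on this score says how many log2 units it moved per unit of the score.

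The slopes separated the 8 genes in steps. *ZBP1*, *DHX58* and *DDX58* moved more than the average interferon-stimulated gene, with slopes of 1.41, 1.38 and 1.31. *EIF2AK2* moved about as much, with 0.92, and *TRIM25* and *IFIH1* less, with 0.73 and 0.68. *MAVS* had a slope of 0.21 and *TMEM173* of -0.14. Of all genes tested, 99.2% to 99.9% had a smaller slope than each of the first 6 genes, 89.2% a smaller one than *MAVS* and 29.2% than *TMEM173*. On leaving out each cow in turn the slope was 1.27 to 1.34 for *DDX58*, 1.31 to 1.46 for *DHX58* and 1.28 to 1.66 for *ZBP1*, and 0.57 to 0.73 for *IFIH1*.

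Correlations with the score passed for the same 6 genes. Pearson's r was 0.90 for *ZBP1* (permutation p = 2e-05, adjusted p = 0.0082), 0.93 for *IFIH1* (permutation p = 7e-05, adjusted p = 0.0193) and 0.96 to 0.97 for the other 4 (permutation p = 1e-05 and adjusted p = 0.0048 each). Spearman's rho was 0.87 to 0.96 and missed the adjusted threshold for *ZBP1* alone (0.87, permutation p = 0.00028, adjusted p = 0.0515). Without the 2 cows farthest from the median score, high 5 and low 8, r was 0.87 to 0.96. *MAVS* had r = 0.62 (rho = 0.35, permutation p of r = 0.021, adjusted p = 0.232), and r = 0.30 without these cows. Its r was 0.83 within the high cows and 0.34 within the low cows. *TMEM173* had r = -0.37 (rho = -0.30, permutation p of r = 0.22, adjusted p = 0.477). Among all 11011 genes outside the score, 0.445% passed with a positive r. The share by rho was not computed.

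**Figure D3:**
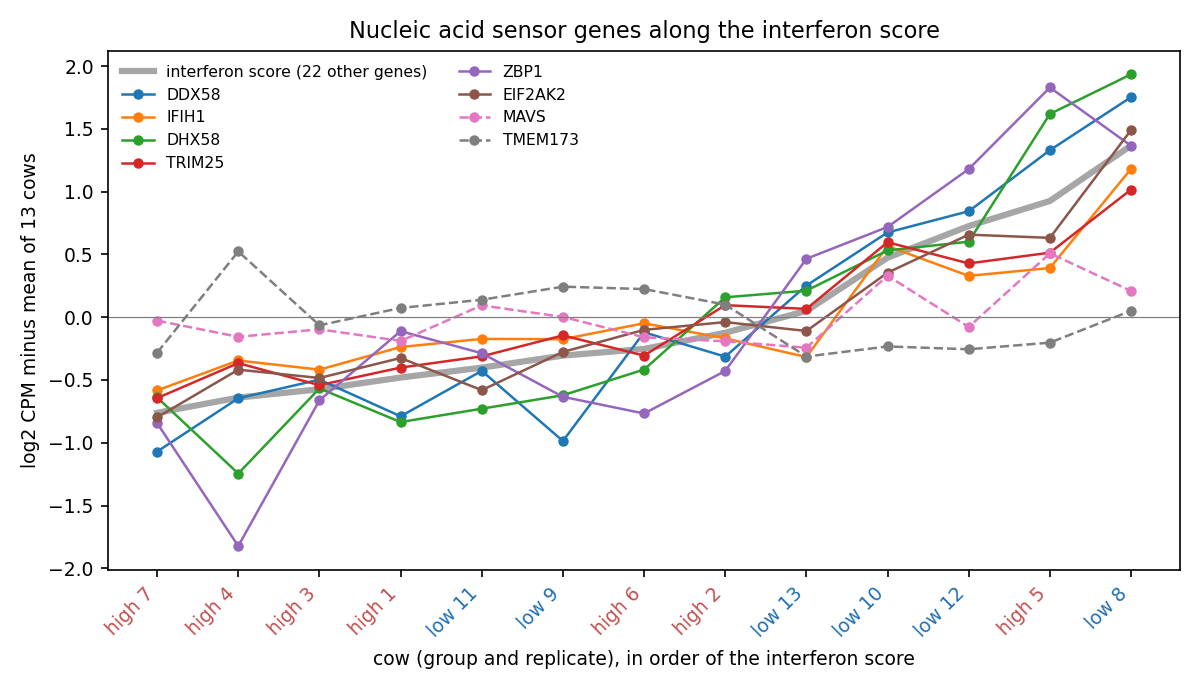
Log2 CPM of each gene minus its mean over the 13 cows, with cows ordered from left to right by the interferon score of 22 other genes (thick grey line; high cows labelled in red, low cows in blue). The 6 solid lines climb with the score, most steeply *ZBP1*, *DHX58* and *DDX58*, while the dashed lines of *MAVS* and *TMEM173* stay near 0 apart from *TMEM173* in high cow 4 and *MAVS* in high cow 5.

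**Figure D4:**
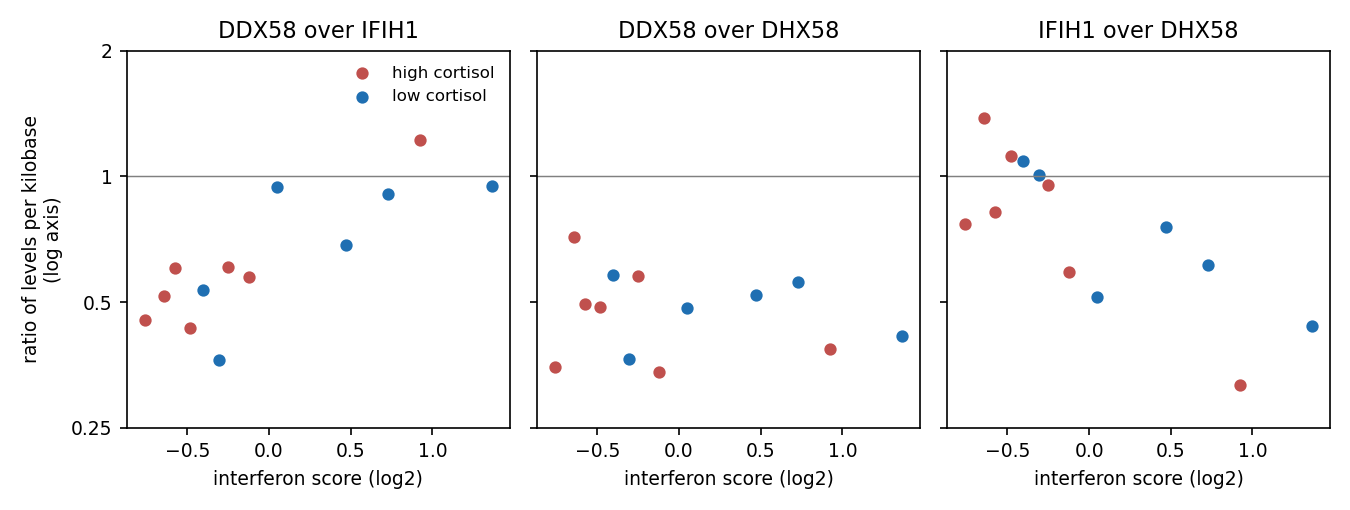
Ratio of the levels per kilobase of each pair of RNA helicases (log axis) against the interferon score of each cow, with high cortisol cows in red and low cortisol cows in blue. *DDX58* over *IFIH1* is 0.362 to 1.22 and is higher at high scores, *DDX58* over *DHX58* stays at 0.340 to 0.714, and *IFIH1* over *DHX58* is 0.316 to 1.38 and lower at high scores.

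The genes most like each of the 8 were taken as the 3 with the highest r over the 13 cows. For *DHX58* they were *CMTR1*, an mRNA cap methyltransferase (r = 0.99), *IRF7*, a transcription factor of interferon genes (0.98), and *PARP10* (0.97). *DDX58* had *CMTR1* (0.96), *SIGLEC1* (0.96), a receptor of macrophages, and *ADAR* (0.95), an editor of double-stranded RNA. For *IFIH1* they were *TRANK1* (0.97), *DRAM1* (0.96) and *PARP14* (0.96). *TRIM25* had *HERC6* (0.95), *MX2* (0.95) and *PARP12* (0.95), and *EIF2AK2* had *HERC6* (0.98), *ZNFX1* (0.96) and *ADAR* (0.96). *ZBP1* was closest to *RNF114* (0.98), a ubiquitin ligase, and then to *FOXS1* (0.97) and *PARP10* (0.97). *TMEM173* had a different company, *DPY19L1* (0.95), *GOLGA1* (0.94) and *WWC2* (0.94), and 25.1% of all other genes passed with it in either direction. These genes of the 7 sensors passed the adjusted permutation threshold, whereas those of *MAVS*, *ADORA2B* (0.89), *CBLN3* (0.88) and *SRRD* (0.82), did not.

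*RNF114* moved much less than *ZBP1*, from 290.1 to 622 CPM, so that a high r did not stand for an equal size of change. *CMTR1* lay between 119 and 339 CPM, a narrower range than that of *DHX58*, and *FOXS1* between 14.1 and 82.6 CPM.

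The comparison of high with low cortisol asked whether sensing genes differ with the level of the stress hormone. Of the 8 genes 7 had a negative log2 fold change (lower in the high group), as had 46.7% of all genes tested, and *TMEM173* had a positive one. By edgeR's quasi-likelihood test over 11033 genes 0 of the 8 passed an adjusted p of 0.05, nor did any other gene (0%). At an unadjusted p of 0.05, *IFIH1* and *TRIM25* passed, both lower in the high group. The background at this p was 2.09% of all genes, or 1.16% counting only those lower in the high group. The groups overlapped for all 8 genes, and the share of all genes with overlapping groups was not computed. Each p sets the difference between groups against the variation between cows.

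*TRIM25* had the smallest p. Its mean was 50.5 ± 15.9 CPM in the high group (SD, n = 7) and 73.0 ± 26.1 CPM in the low group (SD, n = 6). The log2 fold change was -0.53 (SE 0.22, edgeR p = 0.0294, adjusted p = 0.998), and the two-sided exact permutation test of mean log2 CPM gave p = 0.0676. *IFIH1* was at 124 ± 29.4 CPM against 177 ± 77.9 CPM, a log2 fold change of -0.51 (SE 0.22, edgeR p = 0.0374, adjusted p = 0.998), with an exact permutation p of 0.103. By the exact test 0 of the 8 genes were below 0.05, where the smallest p that 7 against 6 cows allow is 5.8e-04. The share of all genes below 0.05 by the exact test was not computed, so this count has no background.

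The other 4 genes that followed the interferon score had fold changes of similar size and wider error. *EIF2AK2* was at 64.2 ± 22.7 CPM in the high and 96.3 ± 56.4 CPM in the low, a log2 fold change of -0.58 (SE 0.30, edgeR p = 0.0660, exact permutation p = 0.191). *DDX58* was at 74.2 ± 55.2 against 120.0 ± 80.2 CPM, a log2 fold change of -0.69 (SE 0.44, edgeR p = 0.138, exact permutation p = 0.205). *DHX58* was at 153 ± 137 against 226 ± 175 CPM (-0.57, SE 0.50, edgeR p = 0.271, exact permutation p = 0.286). *ZBP1* was at 118 ± 127 against 176 ± 87.0 CPM (-0.58, SE 0.51, edgeR p = 0.273, exact permutation p = 0.141). For each of the 6 genes that followed the score, *IFIH1* and *TRIM25* included, 6 of 7 high cows were under the median low cow, and the exception was high cow 5. The same held for *MAVS*, whose correlation with the score did not pass. Low cows above the median high cow were 6 of 6 for *TRIM25* and *ZBP1*. They were 5 of 6 for *DDX58*, *IFIH1*, *EIF2AK2* and *MAVS*, and 4 of 6 for *DHX58*. The share of all genes with such counts was not computed, so these counts have no background.

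The 95% intervals were calculated back from the fold change, test statistic and p of edgeR, so they are approximate. For the adaptors the intervals were narrower. *MAVS* was at 31.7 ± 6.38 CPM in the high and 33.7 ± 4.78 CPM in the low, a log2 fold change of -0.09 with a 95% interval of -0.38 to 0.20 (edgeR p = 0.523, exact permutation p = 0.469). *TMEM173* was at 119 ± 23.4 against 109 ± 17.9 CPM, a log2 fold change of 0.12 with a 95% interval of -0.17 to 0.41 (edgeR p = 0.389, exact permutation p = 0.445). These intervals exclude a doubling or a halving between groups, whereas those of *DDX58* (-1.64 to 0.25), *DHX58* (-1.63 to 0.49), *ZBP1* (-1.66 to 0.51), *EIF2AK2* (-1.21 to 0.04) and *TRIM25* (-1.003 to -0.06) do not exclude a halving.

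**Figure D5:**
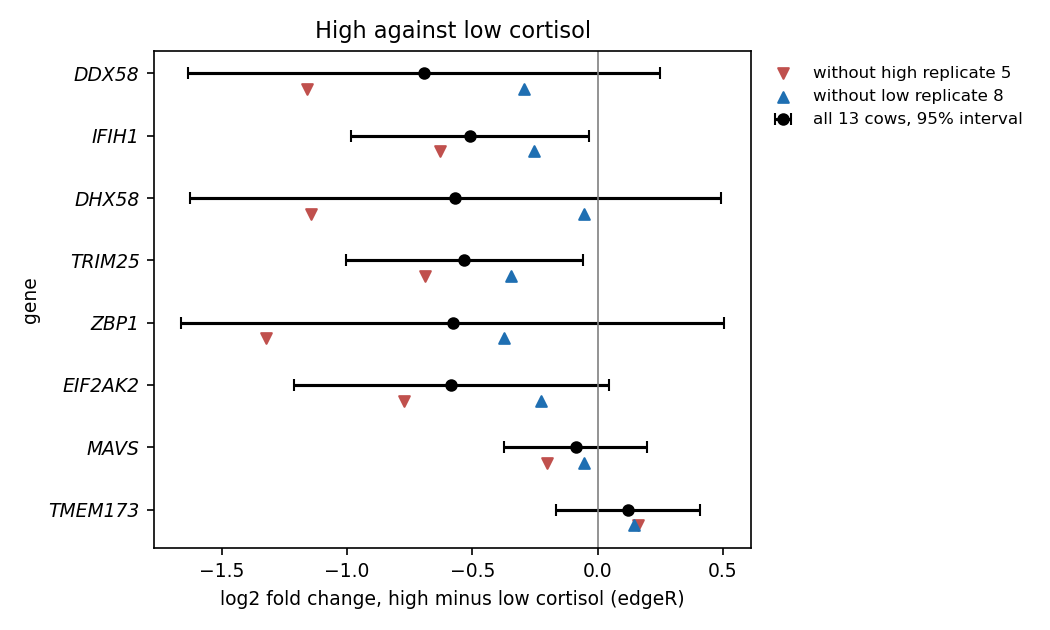
Log2 fold change of high against low cortisol for each gene (edgeR), with all 13 cows (black, bars are 95% intervals), without high cow 5 (red triangles) and without low cow 8 (blue triangles). *ZBP1* moves from -0.58 to -1.32 without high cow 5 and *DHX58* from -0.57 to -0.06 without low cow 8, while *MAVS* and *TMEM173* move little, and for all 8 genes the triangles lie inside the interval of all 13 cows.

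Single cows decided the size of these differences. Without high cow 5, 6 of the 8 genes passed an unadjusted p of 0.05, all lower in the high group, with log2 fold changes of -1.32 for *ZBP1*, -1.16 for *DDX58*, -1.14 for *DHX58*, -0.77 for *EIF2AK2*, -0.69 for *TRIM25* and -0.63 for *IFIH1*. The background was then 3.31% of genes, and 0% passed an adjusted p. Without low cow 8, 0 of the 8 passed (background 1.78%), and the same genes had values of -0.38, -0.29, -0.06, -0.23, -0.35 and -0.25. With both left out, 5 of the 8 passed (background 2.32%) (all of the former but *EIF2AK2*), and again 0 passed after adjustment. Also 0 passed without high cow 1, 3, 4 or 7 or low cow 10, and 1 without high cow 2 or low cow 12. Without high cow 6 the count stayed at 2, and it was 3 without low cow 9, 11 or 13. For the fits that left out a single cow other than high 5 or low 8, the share of all genes was not computed. Their counts therefore have no background. Other models differed less, with 3 of the 8 by DESeq2 (background 2.43%, and 0.00697% after adjustment, no sensor among them) and 1 by limma-voom (background 1.98%).

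High cow 5 had an erythroid marker score of 1.10 and a B cell marker score of 0.71, in log2 units above the average cow. Low cow 8 had a platelet marker score of 0.85. These were the highest of the 9 marker scores in each of these cows. Their lowest were -0.57 for eosinophil markers in high cow 5 and -0.53 for plasma cell markers in low cow 8. The highest erythroid score, 2.03, was that of high cow 7, which had the lowest interferon score, and the highest platelet score, 1.12, that of low cow 9. The haemoglobin share reached 0.815% in the high group and 0.0552% in the low group, so a fit cannot fully part it from group. With the log2 haemoglobin share of each cow as a covariate, 0 of the 8 genes passed an unadjusted p of 0.05 (background 1.09%). Fold changes were smaller in size for *IFIH1*, *TRIM25* and *EIF2AK2* and larger for the other genes, and every SE was larger. The log2 fold change was then -0.48 for *IFIH1* (SE 0.31), -0.44 for *TRIM25* (SE 0.31), -0.50 for *EIF2AK2*, -0.90 for *DDX58*, -0.84 for *DHX58* and -0.90 for *ZBP1*. Over 9 lists of blood cell markers and the 8 genes, 72 correlations were computed, with r between -0.67 and 0.47. None passed after adjustment and 1 had an unadjusted permutation p under 0.05, a negative one between *TMEM173* and the B cell score. Within groups r could differ from that over all cows. For *TMEM173* with the erythroid score it was -0.12 over all, -0.70 in the high and 0.93 in the low cows. For *IFIH1* with the T cell score it was -0.40, -0.09 and -0.82. These examples were picked after their values were seen, and r within groups was not tested. A part of cell composition in the differences between cows was not tested further.

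The rest of the pathway was given by 8 lists with 124 different genes tested, of which 5 had an unadjusted edgeR p under 0.05 and 0 an adjusted one, beside 2.09% and 0% of all genes tested. Counts of lower genes below stand beside 46.7% of all genes. Other regulators and co-sensors of the RNA helicases (20 genes) had 7 lower and 13 higher in the high group, a median log2 fold change of 0.05, beside 0.01 over all genes, and 0 at an unadjusted p under 0.05. *PCBP2*, a brake on MAVS, was the most abundant, at 629 to 958 CPM (log2 fold change -0.08). *ADAR*, at 142 to 499 CPM (log2 fold change -0.39, exact permutation p = 0.281), and *RNF114* were the only members of this list whose correlation with the interferon score passed (slopes 0.76 and 0.40).

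Downstream of both adaptors, 14 of 21 kinases, adaptors and transcription factors were lower and 7 higher in the high group, with a median log2 fold change of -0.06 and 0 at an unadjusted p under 0.05. *IRF3*, the factor that MAVS and STING activate first, was at 170 to 444 CPM (log2 fold change -0.19, exact permutation p = 0.305), and *AZI2*, an adaptor of the kinase TBK1, at 53.2 to 77.4 CPM (0.20, exact permutation p = 0.0507). *RIPK1* was at 125 to 249 CPM (-0.19, exact permutation p = 0.192) and the chaperone *HSP90AA1* at 719.7 to 1061 CPM (-0.10). Only *IRF7* of this list passed for its correlation with the interferon score, with a slope of 1.21, near that of *DDX58*.

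DNA sensing genes and regulators of STING (28 genes) had 16 lower and 12 higher, a median of -0.03 and 0 at an unadjusted p under 0.05. *SAMHD1*, which breaks down nucleotides, was at 396 to 627 CPM (log2 fold change 0.09), and *RNF5*, a ligase that marks STING for breakdown, at 55.6 to 107 CPM (-0.26, exact permutation p = 0.0501). *XRCC5*, a DNA end-binding protein, was at 32.1 to 53.4 CPM (-0.21, exact permutation p = 0.0693), and *HMGB2* at 193 to 319 CPM (0.01). None of these 28 passed for correlation with the interferon score.

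The other kinases that act like PKR and the stress response they start (12 genes) had 6 lower and 6 higher, a median of 0.00 and 0 at an unadjusted p under 0.05. *EIF2AK3*, the kinase PERK, was at 43.0 to 72.1 CPM (log2 fold change 0.22, exact permutation p = 0.160), and the transcription factor *ATF4* at 431 to 683 CPM (-0.13, exact permutation p = 0.152). *EIF2S2*, a subunit of the kinases' target complex, was at 69.4 to 107 CPM (-0.01). While *EIF2AK2* followed the interferon score, 0 of these 12 genes passed for it.

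Partners of ZBP1 in cell death (9 genes) had 5 lower and 4 higher, a median of -0.01 and 0 at an unadjusted p under 0.05. *RIPK3*, the kinase that ZBP1 recruits, was at 78.7 to 155 CPM (log2 fold change -0.13), and *GSDMD*, which forms pores in dying cells, at 154 to 292 CPM (-0.06). None of the 9 passed for the interferon score, although *ZBP1* had the steepest slope of the 8 sensors.

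The OAS and RNase L system, another sensor of double-stranded RNA (6 genes), had 3 lower and 3 higher and a median of -0.10. *OAS1X* was at 44.6 to 310 CPM, with a log2 fold change of -1.11 (SE 0.44, edgeR p = 0.0246, exact permutation p = 0.0600, adjusted p = 0.998), and *OAS2* ranged from 7.32 to 185 CPM (-1.01, SE 0.75, edgeR p = 0.200, exact permutation p = 0.0449, exact permutation p = 0.0449). The *OAS1* genes of cattle are near copies of each other, so the share of reads given to *OAS1X* is uncertain. Both genes passed for correlation with the interferon score, with slopes of 1.402 and 2.20.

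Interferon receptors and their signalling genes (8 genes) had 6 lower and 2 higher and a median of -0.12. *STAT2*, the factor specific to interferon signalling, was at 133 to 490 CPM (log2 fold change -0.47, SE 0.22, edgeR p = 0.0460, exact permutation p = 0.107, adjusted p = 0.998). *IRF9*, its partner, was at 236 to 854 CPM (-0.35, exact permutation p = 0.213). *STAT2* and *IRF9* passed for correlation with the score, with slopes of 0.61 and 0.66. *IFNB3*, the interferon gene of this list in the tables, had 0 counts in all 13 cows, where 3 counts correspond to 0.107 to 0.272 CPM.

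The 22 interferon-stimulated genes of the score were all lower in the high group, with a median log2 fold change of -0.56 and 3 at an unadjusted p under 0.05. *Mx1*, an antiviral GTPase, was at 224 to 2254 CPM (log2 fold change -1.11, SE 0.43, edgeR p = 0.0202, exact permutation p = 0.0763, exact permutation p = 0.0763), and *LGALS3BP* at 139 to 461 CPM (-0.46, SE 0.20, edgeR p = 0.0353, exact permutation p = 0.0705, exact permutation p = 0.0705). *ISG15*, a ubiquitin-like protein, was at 40.6 to 1015 CPM (-0.87, exact permutation p = 0.136) and *IFIT1*, which binds viral RNA, at 253 to 1813 CPM (-0.69, exact permutation p = 0.251). These genes follow the same cows as the 6 sensors, so their direction is not independent of the sensors' direction.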

How the data were processed

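RNA of whole blood from 13 cows was sequenced. Counts were deposited by the authors as whole numbers of reads on the exons of each gene name, not normalized. Per the file headers, featureCounts 1.4.6-p3 was run with Ensembl release 88 gene models for UMD3.1 and no strand option, and the headers name no aligner. The submitters' notes give STAR 2.7.3, Subread 1.6.5 and ARS-UCD1.2. In the headers the alignment carries another animal number than the table itself and sits in a folder named for goats, whereas the labels give cattle. Groups are from the labels and were not checked against another record. Positions and exon lengths are those of the tables (UMD3.1). Reads of genes without a name share 1 entry (13.9% to 16.7% of counts), which was left out. The labels give no batch or date. The study states more cows than the 13 analysed here.

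TMM factors (0.928 to 1.10) gave CPM and log2 CPM (prior count 2). The groups were tested against each other with edgeR 4.0.16 (robust quasi-likelihood fit, R 4.3.3) over the 11033 of 16095 named genes passing filterByExpr (minimum count 10, minimum total 15), with Benjamini-Hochberg adjustment, and tested on simulated data first. Exact permutation tests used all 1716 splits. Named-gene counts were 12198355 to 23709740 per cow in the high group (median 18595924) and 11045599 to 28124575 in the low group (median 17005346.5). A floor of 3 counts is 0.107 to 0.272 CPM and covers counting error only. Of 78 pairs of libraries, 0 held the same counts.

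The 8 genes, the lists and the tests were chosen with earlier results of these data known. Genes named are the 8 sensors, the 3 most alike to each, and in each list the 2 with the smallest p and the 2 with the highest level per kilobase. Of the genes so chosen, 1 is not reported here. *IRF7* of the kinase list was named as the only one passing for the score, and *MB21D1* and *TBK1* after their values were seen. Alternatives were DESeq2 1.42.0, limma-voom (limma 3.58.1), RLE and upper-quartile factors, other count filters, haemoglobin left out or as a covariate, a non-robust fit, and each cow left out. A fit without high cow 5 and low cow 8 was added after the data were seen. Blood cell marker lists (erythroid, neutrophil, monocyte, T cell, B cell, NK and cytotoxic, platelet, eosinophil, plasma cell) were scored as the interferon list.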

Additional observations from a re-analysis of the deposited data

Results flagged for a closer look

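In the high group, *DDX58* was at 197 CPM in high cow 5 and at 37.2 to 71.9 CPM in the other 6 cows, and on log2 CPM its gap to the next cow was 0.604 of the range of the group, past Dixon's 95% critical value for 7 samples. *MAVS* was at 45.9 CPM in the same cow and at 28.2 to 31.7 CPM in the others, with a gap of 0.764 of the range on log2 CPM. Of 32 such comparisons (the highest and lowest cow of each group for 8 genes) these 2 passed on the log2 scale, on which distances at the top are shorter than in CPM, and chance passes about 5% of groups.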

How the results depend on the processing

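No paired analysis was possible because the replicate numbers of the high and low groups do not overlap. No alternative turned the direction of a correlation or log2 fold change that had passed its threshold. The count of sensors at an unadjusted p under 0.05, which was 2, became 0 with the haemoglobin covariate and 1 with limma-voom. With the covariate every SE was larger. Fold changes were then smaller in size for *IFIH1*, *TRIM25* and *EIF2AK2* and larger for the other sensors. The count was 0 to 6 on leaving out each cow, and 5 without high cow 5 and low cow 8. Among fits without a single cow, the share of all genes was computed only without high cow 5 (3.31%) or low cow 8 (1.78%). Listed genes at that p, 5 with all cows, became 1 with the haemoglobin covariate (1.09% of all genes), 1 to 27 on leaving out each cow (27 without high cow 5, 3.31% of all genes), and 17 without both cows (2.32% of all genes). DESeq2 gave 3 sensors (*IFIH1*, *TRIM25* and *EIF2AK2*) beside 2.43% of genes. The count of sensors passing an adjusted p was 0 in every fit. Without division by exon length, the order of mean levels had *DHX58* at 1, *IFIH1* at 2, *ZBP1* at 3, *TMEM173* at 4, *DDX58* at 5 and *EIF2AK2* at 6. Pairs passing for co-variation, 12 with all cows, were 4 to 12 on leaving out each cow and 0 without both cows. The cause was not tested. With the other normalizations, filters and fits, the remaining counts of sensors, listed genes and pairs stayed within 1.5 times. Depth did not limit the 8 genes, with 339 counts or more per cow, whereas the number of cows limits the precision.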

Other observations

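*MB21D1*, the gene of the DNA sensor cGAS that makes the ligand of STING, was at 0.902 to 2.09 CPM, with a mean of 1.02 CPM per kilobase, whereas *TMEM173* had a mean of 45.4 CPM per kilobase. *MB21D1* was chosen after its values were seen, and its log2 fold change between groups was 0.10. *TBK1*, the kinase that both adaptors recruit, was at 15.5 to 54.8 CPM, with a mean of 10.5 CPM per kilobase and a log2 fold change of 0.19.

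*TMEM173* stood out among the 8 genes in how many other genes it ran with. Of 11032 genes, 25.1% passed with it in either direction and 13.3% with a positive r, beside 0% with a positive r for *MAVS* and 4.21% for *ZBP1*, the next highest. What these genes share was not tested.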
